A study of Mus musculus with 45 samples.

Results

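Interstitial macrophages (IM) of the mouse lung were compared between 6h and 2h after intraperitoneal (ip) injection of lipopolysaccharide (LPS). The comparison takes 4 of the 45 libraries of the series, 2 at 6h and 2 at 2h, chosen by the cell type, route and time in their labels. All 23594 gene rows entered, and the 8937 genes with at least 5 TPM, the deposited unit of transcript abundance per length of transcript and per library, in at least 2 of the 27 libraries of 0h and ip were tested. The series as a whole holds alveolar macrophages (AM), IM and inflammatory monocytes (iMo), which were isolated from C57BL/6J mouse lungs by FACS (the mice carry no named allele). They were sampled before LPS (0h) and at 2, 6 and 20h after ip or nasal LPS, and the polyadenylated RNA of 500 to 5000 cells per library was amplified by a modified Smart-seq2 protocol. Per the labels, the 6h and the 2h group each hold a library whose title ends in the code ipA161219 and a library whose title ends in ip160623. The labels do not say what the code marks, nor whether replicates are separate animals, so p-values measure the spread between libraries. That spread was estimated over all 27 libraries of 0h and ip, not from the 4 compared here alone. Age, sex and the dose of LPS were not stated in the labels used. Wherever values of single libraries follow, that of code ipA161219 stands before that of code ip160623.

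LPS, a component of the outer membrane of Gram-negative bacteria, is sensed by macrophages through TLR4 with CD14 and MD-2. The adaptor MyD88 leads to NF-kB and MAP kinases and to early cytokines and chemokines. The adaptor TRIF leads to IRF3 and interferon beta, and the interferon then acts through its receptor on a second set of genes, the interferon-stimulated genes. Early products of NF-kB, among them A20 (Tnfaip3) and IkB proteins, are known to restrain the pathway that induced them. IM lie in the lung tissue around airways and vessels, unlike AM, which lie in the airspace.

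The cell type label was checked against its markers. C1qa, a subunit of complement C1q and a marker of tissue macrophages, was at 18.1 and 33.9 TPM at 6h, against 59 and 20.7 TPM at 2h. Csf1r, the receptor for CSF1, was at 128 and 89.3 TPM at 6h, against 87.5 and 69.5 TPM at 2h. Folr2, Lyve1, Cx3cr1 and Cd163, markers of resident IM, were at most 8.51 TPM in each of the 4 libraries, while their 0h means were between 21.9 and 186 TPM. Transcripts of classical monocytes and neutrophils were abundant at both times: Ly6c2 was at 1404 and 452 TPM at 6h, against 936 and 617 TPM at 2h, and S100a8, a calcium-binding protein of neutrophils and monocytes, was at 28641 and 8503 TPM at 6h, against 9309.7 and 8886 TPM at 2h. The sum over all 14 neutrophil markers was 57493 and 17556 TPM at 6h, against 23306 and 20308 TPM at 2h, so the times overlapped, and none of the 14 was at 0 in all 4 libraries. The results are therefore those of the libraries labelled IM, and in such bulk samples fewer cells of a type and less RNA per cell cannot be told apart. Rn45s, a ribosomal RNA precursor, held 6.05 and 33.3% of the summed TPM at 6h, against 4.33 and 24% at 2h. Between 4913 and 5707 genes reached 5 TPM at 6h, against 4068 to 5374 at 2h.

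From 2h to 6h, the falling transcripts included interferon-stimulated genes, CXCR3 ligands, inflammatory cytokines and feedback inhibitors of NF-kB, and the rising ones included Arg1, glycolytic enzymes and glucocorticoid-induced genes. Of the 8937 genes tested, 644 (7.21%) were called at an adjusted p under 0.05 by limma. Of these, 396 were higher at 6h (4.43% of the genes tested) and 248 were lower (2.77%). Counts of called list members below are to be read against these 2 shares, and 1 call in a list is no result about that list. The shares depend on the filter: with it set on the 4 IM libraries, 373 of 5513 genes were higher and 267 lower. Both shares are larger there, and list counts were not set against them. The median log2 change over all genes was 0.20, and quantile normalization moved it to 0.04. Each fold change below is therefore given on the log2(TPM+1) scale relative to that median, while called, rose and fell go by limma's test on the unsubtracted values. The changes of called genes had a median size of 1.40 among those that rose and 1.98 among those that fell, and 51 and 118 of them exceeded 2. All 396 risers and 247 of the 248 fallers had 6h libraries that did not overlap the 2h libraries, where 30.7% of all genes had both 6h libraries above and 11.8% both below. The largest risers and fallers named below were picked from genes without overlap, so their separation is no further result. The count depended on each of the 4 libraries and on the libraries that share the estimate of spread, since it was 44 with only the 4 IM libraries in the fit. In fits that each left out 1 of the 4 (the leave-outs), it was 378 without the 6h library of code ipA161219 (138 higher and 240 lower) and 239 without that of ip160623 (183 higher and 56 lower). It was 405 without the 2h library of code ipA161219 (320 higher and 85 lower) and 414 without that of ip160623 (145 higher and 269 lower), so which direction had more calls turned with the library left out.

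The 2 title codes each give a change of their own, with no library in common. Across the 8937 genes, which are not independent replicates, the change in ipA161219 and that in ip160623 correlated at a Pearson r of 0.63, and 70.8% had the same sign in both, each relative to its own median. Libraries of the same time correlated at 0.950 for 6h and 0.937 for 2h, and libraries of the same code across times at 0.913 for ipA161219 and 0.896 for ip160623. Arg1 differed most between the codes among the genes named here, with a change of 3.22 in ipA161219 and 6.45 in ip160623.

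**Figure D1:**
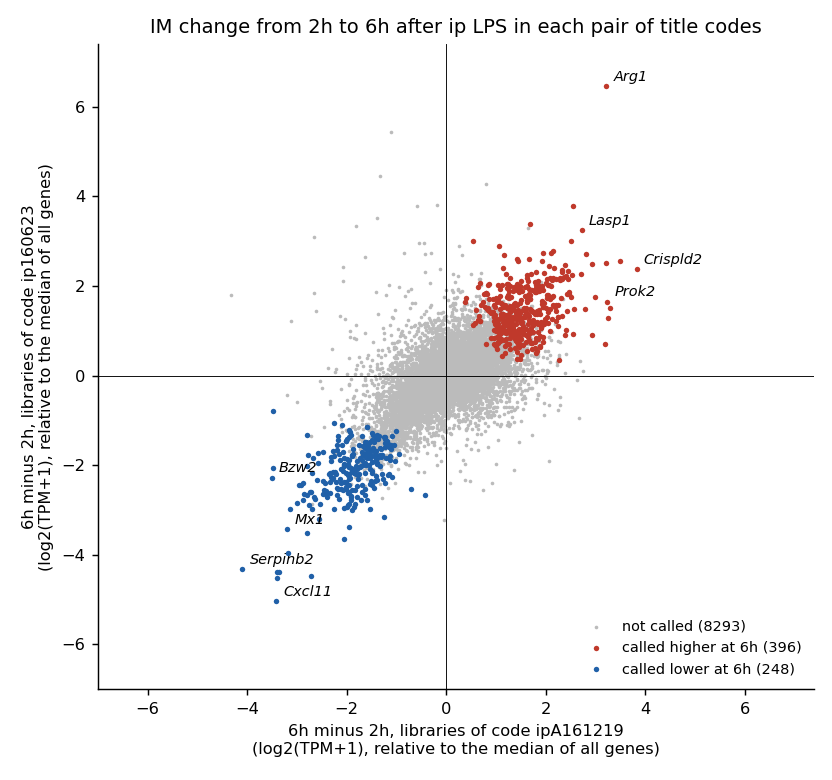
Change from 2h to 6h in libraries labelled IM, for the pair of libraries of code ipA161219 (x axis) and of code ip160623 (y axis), both as differences of log2(TPM+1) relative to the median of all genes. Each point is a gene, and the 396 called higher (red) and 248 called lower (blue) lie in the upper right and lower left, with Arg1 at 3.22 and 6.45.

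Cxcl11 and Cxcl10, chemokines that attract activated T and NK cells through CXCR3, were among the largest falls. Cxcl11 was at 15.3 and 1.94 TPM at 6h, against 161 and 78.1 TPM at 2h (log2 fold change -4.23, SE 0.55, adjusted p = 0.00019). Cxcl10, the most abundant of them, was at 1118 and 227 TPM at 6h, against 11052 and 4274 TPM at 2h (log2 fold change -3.97, SE 1.09, adjusted p = 0.0366). In both genes each 6h library lay below each 2h library, as their naming required. The 6h libraries of Cxcl10 had a wider ratio between them than the 2h libraries. The call of Cxcl10 was lost without the 6h library of code ip160623 and without either 2h library, with adjusted p up to 0.298. These were the 2 of 6 tested members of their list that fell, with none that rose and a list median of -1.32. The third CXCR3 ligand, Cxcl9, was not called, at -1.24, adjusted p = 0.316.

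Among 12 tested CC chemokines, 2 fell and none rose. Ccl4, which attracts T cells and monocytes, was at 510.3 and 95 TPM at 6h, against 3158 and 1756 TPM at 2h (log2 fold change -3.61, SE 0.73, adjusted p = 0.00513). Ccl3, which attracts monocytes and other leukocytes, was at 619.7 and 287 TPM at 6h, against 2145 and 1393 TPM at 2h (log2 fold change -2.23, SE 0.57, adjusted p = 0.032). Both calls were lost without the 6h library of code ip160623 or the 2h library of code ipA161219, and that of Ccl3 also without the 2h library of code ip160623. The monocyte attractants Ccl2 and Ccl7 were not called, with values of 0.26 and -0.79. Of the neutrophil attractants Cxcl1, Cxcl2 and Cxcl3, none was called either. Cxcl2 was at 559 and 519 TPM at 6h, against 941 and 728 TPM at 2h, the largest change of the 3 (-0.82, adjusted p = 0.627).

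The promoters of the 2 fallers and the 2 risers of largest change with a RefSeq entry are shown, since members that moved together can share short motifs. Each runs from 250 bases before to 50 after an annotated start, 5′ to 3′ on the gene's strand, build GRCm38.p6, and Serpinb2 has 2 such starts, of which the upstream one is printed. Capitals mark matches, on either strand, to an interferon-stimulated response element (ISRE, which is GAAA, any 2 bases and GAAA), an AP-1 site (TGANTCA), a cyclic AMP response element (CRE, TGACGTCA) or the NF-kB site.
Cxcl10, chr5:92348840-92349139, minus strand: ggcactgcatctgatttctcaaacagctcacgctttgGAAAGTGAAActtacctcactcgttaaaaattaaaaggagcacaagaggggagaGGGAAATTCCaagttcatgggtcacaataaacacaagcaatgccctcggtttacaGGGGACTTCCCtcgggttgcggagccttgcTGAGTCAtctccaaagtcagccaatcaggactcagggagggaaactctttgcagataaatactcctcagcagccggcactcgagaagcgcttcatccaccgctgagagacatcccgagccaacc
Serpinb2, chr1:107511173-107511472, plus strand: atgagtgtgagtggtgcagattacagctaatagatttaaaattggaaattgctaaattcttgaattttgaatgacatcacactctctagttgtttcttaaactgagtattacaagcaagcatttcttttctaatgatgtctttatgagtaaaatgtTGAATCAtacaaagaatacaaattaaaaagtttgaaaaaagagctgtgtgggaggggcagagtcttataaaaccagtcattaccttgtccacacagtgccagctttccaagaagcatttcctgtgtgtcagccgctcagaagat
Anpep, chr7:79848161-79848460, minus strand: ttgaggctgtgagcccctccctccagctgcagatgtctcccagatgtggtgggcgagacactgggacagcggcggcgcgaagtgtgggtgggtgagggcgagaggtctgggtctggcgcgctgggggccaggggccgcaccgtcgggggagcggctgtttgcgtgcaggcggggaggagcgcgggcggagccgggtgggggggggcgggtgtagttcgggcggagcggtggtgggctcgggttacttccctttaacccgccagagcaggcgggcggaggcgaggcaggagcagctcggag
Crispld2, chr8:119992188-119992487, plus strand: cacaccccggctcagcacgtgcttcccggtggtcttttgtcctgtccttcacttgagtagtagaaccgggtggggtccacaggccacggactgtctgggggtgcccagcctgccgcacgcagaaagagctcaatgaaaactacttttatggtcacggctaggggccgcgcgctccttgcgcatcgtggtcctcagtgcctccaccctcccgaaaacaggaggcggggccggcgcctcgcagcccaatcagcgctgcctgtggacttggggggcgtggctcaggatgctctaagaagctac
The Cxcl10 promoter holds an ISRE match from -213, NF-kB matches from -159, -104 and -103, of which the last 2 overlap, and an AP-1 match from -74, counted from the start site. Serpinb2 holds an AP-1 match from -94. The promoters of Anpep and Crispld2 hold none of the 4 motifs.

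The same search over all promoters of this length was made as a description. An ISRE match was found in 14.9% of the 195 called fallers with an entry and in 3.18% of the 314 called risers, against 4.36% of the 7082 tested genes with an entry and 3.99% of all 27025 genes. The NF-kB site was found in 16.9% of fallers and 14.3% of risers, against 12.3% of tested genes. AP-1 matches were found in 11.3% of fallers and 6.37% of risers, against 6.61% of tested genes, and CRE matches in 2.05% of fallers and 1.91% of risers, against 3.59% of tested genes. Among the type I interferon-stimulated genes of the list below, 14 of 23 with an entry held an ISRE match (60.9%). A match is a string of letters in this window and says nothing of binding.

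Type I interferon-stimulated genes were the list with the most calls, but also the list with the most tested members, so this is no ranking by share. Of all tested genes, 2.77% fell. Of 30 tested members, 10 fell and none rose, all 30 had a value below the median of all genes, and the list median was -1.36. Mx1, of the family of dynamin-like GTPases, was at 71.4 and 29.4 TPM at 6h, against 619 and 269 TPM at 2h (log2 fold change -3.33, SE 0.51, adjusted p = 0.000632). Its paralogue Mx2, with which it may share reads, was at 14.6 and 4.65 TPM at 6h, against 100.3 and 52.3 TPM at 2h (log2 fold change -3.17, SE 0.42, adjusted p = 0.00023). Usp18, the protease that removes ISG15 and dampens interferon signalling, was at 146 and 55.5 TPM at 6h, against 795 and 338 TPM at 2h (log2 fold change -2.71, SE 0.55, adjusted p = 0.00599). Cmpk2, a mitochondrial nucleotide kinase, was at 76.6 and 36.7 TPM at 6h, against 448 and 208 TPM at 2h (log2 fold change -2.70, SE 0.47, adjusted p = 0.00189). In each of these 4 genes both 6h libraries lay below both 2h libraries, while Herc6 (-1.87) was the 1 called gene of the 644 whose times overlapped. The cytosolic RNA sensors Ifih1 (-2.57) and Ddx58 (-2.09) fell, as did Ifit1 (-2.36), Rsad2 (-2.43) and Oasl1 (-2.23). The transcription factors Irf7 (-1.07) and Stat2 (-1.37) were not called. The count of members that fell was 3 without the 6h library of code ip160623 and 5 without the 2h library of code ipA161219. Mx1, Mx2 and Ifih1 kept their calls when any 1 of the 4 libraries was left out.

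Interferon-inducible GTPases, MHC class I genes and MHC class II genes gave no calls. Of 13 tested GTPases, which act against vacuolar pathogens, none was called; Gbp3 had the largest value, -1.76 (adjusted p = 0.194), and the list median was -1.10. Of 17 members of MHC class I presentation and the immunoproteasome none was called (median -0.65, with H2-Q7 at -1.57 the farthest from 0), and of 9 class II members none (median -0.74). Cd74, the invariant chain of class II, was at 479 and 184 TPM at 6h, against 1467 and 463 TPM at 2h (-1.67, adjusted p = 0.357).

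Inflammatory cytokines fell in 5 of 15 tested genes and rose in none, with a list median of -1.40. Il15, a growth factor of NK and memory T cells, was at 20.4 and 4.56 TPM at 6h, against 203 and 93.7 TPM at 2h (log2 fold change -3.87, SE 0.55, adjusted p = 0.000324). Tnfsf10, the death ligand TRAIL, was at 1.83 and 0.921 TPM at 6h, against 16.3 and 11.4 TPM at 2h (log2 fold change -2.85, SE 0.41, adjusted p = 0.000454). In both, each 6h library lay below each 2h library. Ebi3, the shared subunit of IL-27 and IL-35, was at 184 and 85 TPM at 6h, against 458 and 335 TPM at 2h (-1.84, adjusted p = 0.0492). Il12a, the p35 subunit of IL-12, was at 3.88 and 4.54 TPM at 6h, against 19.7 and 11.3 TPM at 2h (-1.82, adjusted p = 0.0281). Il6 was the remaining one (-1.60, adjusted p = 0.045), and its call was lost without any 1 of the 4 libraries. Ebi3 and Il12a each kept the call in only 1 of the 4 leave-outs. Il15 and Tnfsf10 stayed called when any 1 of the 4 libraries was left out, and they were the 2 that fell without the 6h library of code ip160623 or without the 2h library of code ipA161219. Tnf (-1.01), Il1a (-1.23) and Il1b (-1.37) were not called.

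NF-kB subunits and feedback genes fell in 7 of 19 tested members, all 19 had values below the median of all genes, and the list median was -1.25. Tnip3, an A20-binding inhibitor of NF-kB, was at 11.5 and 3.01 TPM at 6h, against 105 and 50.7 TPM at 2h (log2 fold change -3.59, SE 0.47, adjusted p = 0.000199). Tnfaip3, which encodes A20 itself, a ubiquitin-editing enzyme, was at 129.5 and 54.3 TPM at 6h, against 456 and 293 TPM at 2h (log2 fold change -2.31, SE 0.45, adjusted p = 0.00443). Nfkb1, the precursor of the p50 subunit, was at 39.7 and 22.5 TPM at 6h, against 154 and 99.5 TPM at 2h (log2 fold change -2.21, SE 0.40, adjusted p = 0.00317). Traf1, an adaptor of TNF receptors, was at 31.2 and 13.9 TPM at 6h, against 85.6 and 64 TPM at 2h (log2 fold change -1.98, SE 0.36, adjusted p = 0.00355). All 4 genes had 6h libraries below the 2h libraries. Rel (-1.69), Nfkbib (-1.82) and Nfkbiz (-1.69) also fell. The classical inhibitor Nfkbia was not called, at -1.44. The count was 1 without the 6h library of code ip160623, where Tnip3 alone was called, and 4 without the 2h library of code ipA161219.

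**Figure D2:**
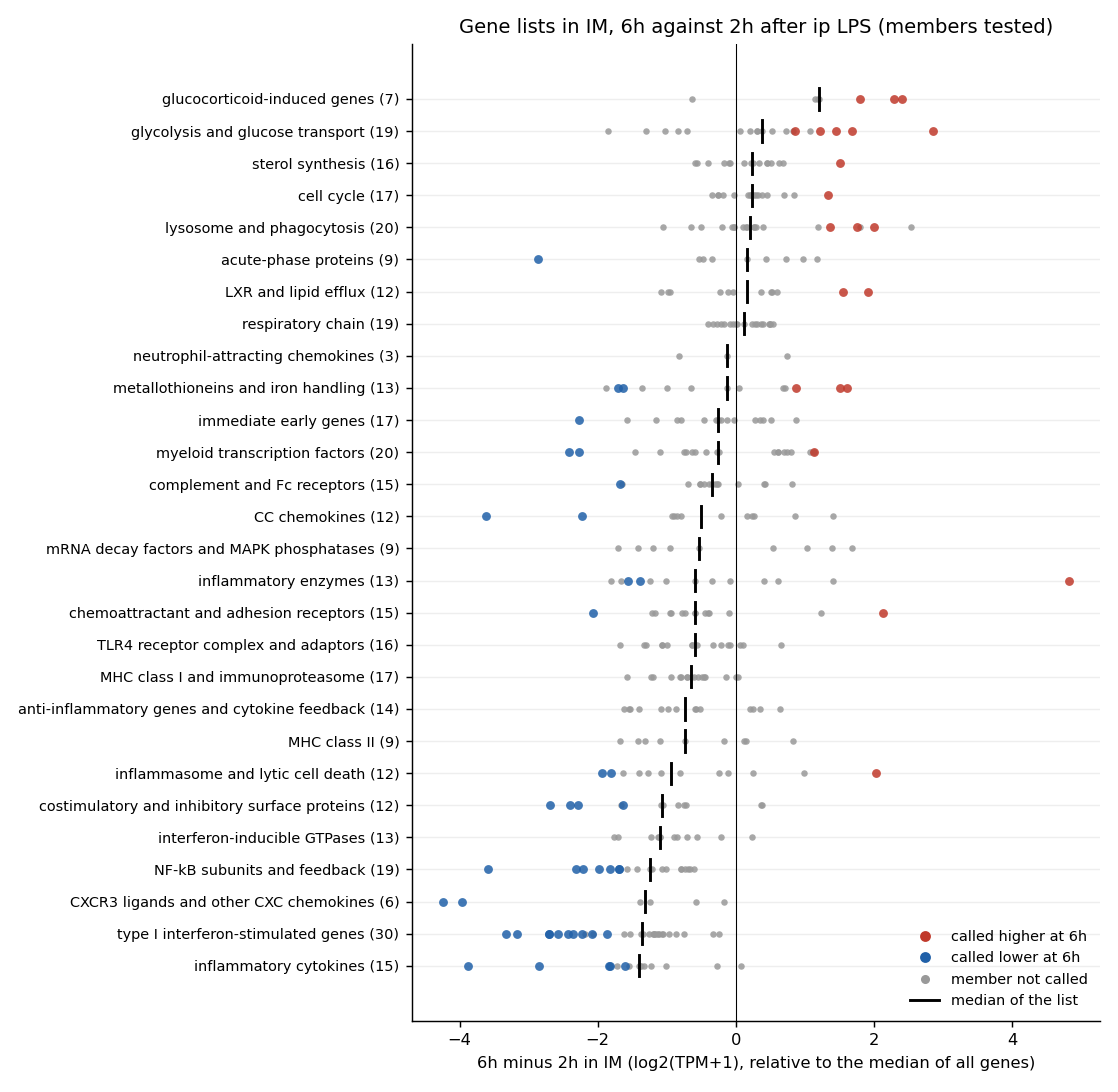
Members of 28 gene lists in libraries labelled IM, 6h minus 2h, as log2(TPM+1) relative to the median of all genes (x axis), with the number of members tested in brackets. Points are genes, red called higher at 6h, blue called lower, grey not called, and bars are list medians, from -1.40 for inflammatory cytokines to 1.20 for glucocorticoid-induced genes.

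Surface proteins of antigen-presenting cells fell in 4 of 12 tested members and rose in none (median -1.07). Cd69, an early activation antigen, was at 25.1 and 7.42 TPM at 6h, against 94.2 and 71.6 TPM at 2h (log2 fold change -2.69, SE 0.57, adjusted p = 0.00804). Cd40, the receptor for CD40 ligand, was at 53.2 and 15.7 TPM at 6h, against 183 and 104 TPM at 2h (-2.40, adjusted p = 0.0468). Cd83 (-2.28) and Slamf1 (-1.63) fell too, and Cd80 (-0.73) and Cd86 (-1.66) were not called. None of the 4 was called without the 6h library of code ip160623 or without the 2h library of code ipA161219. Of the enzymes of inflammation, Nos2, the inducible nitric oxide synthase, was at 17.7 and 11.8 TPM at 6h, against 22.5 and 65.3 TPM at 2h (-1.56, adjusted p = 0.0361), and Ptgs2, cyclooxygenase 2, was at 4.30 and 3.12 TPM at 6h, against 9.74 and 9.62 TPM at 2h (-1.39, adjusted p = 0.0327). The call of Ptgs2 was lost without any 1 of the 4 libraries, and that of Nos2 without all but the 2h library of code ipA161219. Acod1, which makes itaconate, was not called at -1.81. Ptx3, a soluble pattern recognition protein, was the 1 of 9 acute-phase genes that fell (-2.87, adjusted p = 0.00446), but not without the 6h library of code ip160623 or the 2h library of code ipA161219, and Saa3 (0.97) and Lcn2 (0.16) were not called.

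Genes outside these lists were among the largest falls. Serpinb2, an intracellular serine protease inhibitor also known as plasminogen activator inhibitor 2, was at 5.75 and 1.23 TPM at 6h, against 107 and 35.8 TPM at 2h (log2 fold change -4.22, SE 0.57, adjusted p = 0.00023). Rilpl1, a protein that binds Rab GTPases, was at 3.44 and 0.891 TPM at 6h, against 42.6 and 31.4 TPM at 2h (log2 fold change -3.90, SE 0.44, adjusted p = 6.46e-05). Slc25a22, a mitochondrial glutamate carrier, was at 18.2 and 10.4 TPM at 6h, against 143 and 66.8 TPM at 2h (log2 fold change -2.94, SE 0.40, adjusted p = 0.000246). Each was lower at 6h in both codes and kept its call when any 1 of the 4 libraries was left out. Bzw2, a regulator of translation start, was at 6.32 and 5.02 TPM at 6h, against 76.9 and 23 TPM at 2h (log2 fold change -2.91, SE 0.53, adjusted p = 0.00266), and its call was lost without the 2h library of code ipA161219. Tnfaip6, a secreted hyaluronan-binding protein, was at 2.95 and 0.836 TPM at 6h, against 31.5 and 11 TPM at 2h (log2 fold change -3.07, SE 0.44, adjusted p = 0.000433). It kept its call in the same 4 fits.

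Among inflammasome and lytic cell death genes, the sensors Nlrp3 and Aim2 fell while Ripk3, the kinase of necroptosis, rose. Nlrp3 was at 26.4 and 16 TPM at 6h, against 60.6 and 68.5 TPM at 2h (-1.80, adjusted p = 0.00433). Aim2, which senses cytosolic DNA, was at 2.79 and 3.16 TPM at 6h, against 15.2 and 9.77 TPM at 2h (-1.93, adjusted p = 0.006). Ripk3 was at 55.8 and 27.6 TPM at 6h, against 11.3 and 4.92 TPM at 2h (2.04, adjusted p = 0.0018) and kept its call in all 4 leave-outs. The call of Nlrp3 was lost without the 6h library of code ip160623, and that of Aim2 without the 2h library of code ipA161219. The remaining 9 of the 12 tested members were not called, Casp1 among them at -1.40.

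Arg1 rose the most of all named genes. This arginase, which turns arginine into ornithine and urea and so competes with nitric oxide synthase, was at 23.8 and 217 TPM at 6h, against 1.49 and 1.04 TPM at 2h (log2 fold change 4.82, SE 1.02, adjusted p = 0.00342). Both 6h libraries lay above both 2h libraries, but the 6h libraries differed from each other by far more than the 2h libraries did, and the call was lost without the 6h library of code ip160623 (adjusted p = 0.106). That library also had the highest summed TPM over the 15 alveolar macrophage markers, which was 991 and 2216 TPM at 6h, against 1173 and 390 TPM at 2h. One of these markers, Chil3, is also on the list of classical monocyte markers. None of the 15 was called, and Marco was at 1.94 and 41.3 TPM at 6h, against 1.31 and 3.67 TPM at 2h. Siglecf, a defining surface lectin of AM, was at 1.34 and 0.622 TPM at 6h, against 8.11 and 1.31 TPM at 2h. In AM, Arg1 averaged 1.18 ± 0.578 TPM at 6h (SD, n = 3) and 1.00 ± 0.585 TPM at 2h (SD, n = 2). Its values in the AM libraries of 20h were 59.8 and 0.313 TPM. The part of alveolar macrophage transcripts in the Arg1 result was not tested. Anpep, the surface aminopeptidase CD13, was at 9.95 and 36.9 TPM at 6h, against 0.743 and 1.27 TPM at 2h (log2 fold change 3.15, SE 1.03, adjusted p = 0.0481), and leaving out any 1 of the 4 libraries lost its call.

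**Figure D3:**
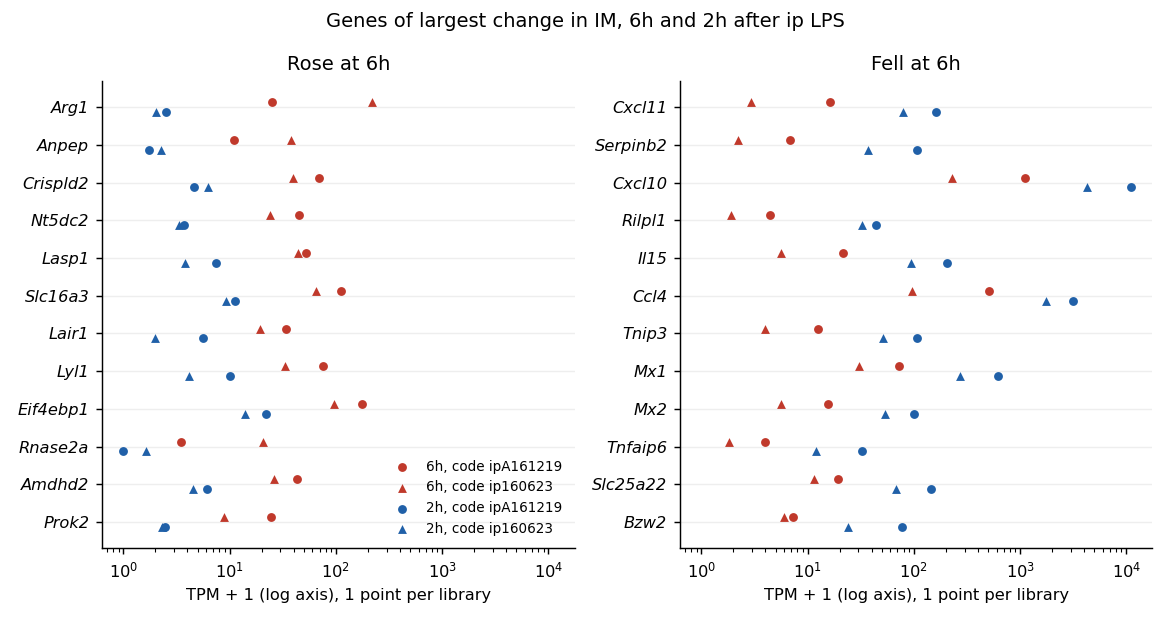
TPM + 1 on a log axis of the 12 genes with the largest rise (left) and the 12 with the largest fall (right) in libraries labelled IM, with 6h in red and 2h in blue, circles for code ipA161219 and triangles for code ip160623. In all 24 genes the red points lie on 1 side of the blue ones, because only genes without overlap were eligible. Among the fallers Cxcl10 reached 11052 TPM at 2h.

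Transporters and enzymes of glucose use rose in 5 of 19 tested members and fell in none, with a list median of 0.38. Slc16a3, the carrier that exports lactate, was at 109.9 and 63.6 TPM at 6h, against 10.2 and 8.30 TPM at 2h (log2 fold change 2.85, SE 0.43, adjusted p = 0.00023). Gpi1, glucose-6-phosphate isomerase, was at 49.6 and 45.4 TPM at 6h, against 16.4 and 12.8 TPM at 2h (log2 fold change 1.44, SE 0.34, adjusted p = 0.00418). Tpi1, triosephosphate isomerase, was at 46.5 and 32.3 TPM at 6h, against 15.7 and 6.04 TPM at 2h (log2 fold change 1.68, SE 0.41, adjusted p = 0.00598). Slc16a3 and Gpi1 kept their calls when any 1 of the 4 libraries was left out. Tpi1 was lost without the 6h library of code ipA161219 or the 2h library of code ip160623. Hk1 (1.21) and Eno1 (0.86) rose as well, but Hk1 lost its call in 3 of the 4 leave-outs and Eno1 in all 4. Pfkfb3 (-1.30), Slc2a6 (-1.86) and Hk2 (-0.83) had values below the median and were not called. The count of members that rose was 2 without the 6h library of code ipA161219, 3 without that of ip160623 and 3 without the 2h library of ip160623. Of 19 respiratory chain genes none was called, and their values ran from -0.41 to 0.53, the highest that of Cox5a.

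Glucocorticoid-induced genes rose in 3 of 7 tested members and fell in none, with the highest median of the 28 lists, 1.20. Fkbp5, a co-chaperone that feeds back on the glucocorticoid receptor, was at 73.5 and 47.1 TPM at 6h, against 11.8 and 7.84 TPM at 2h (log2 fold change 2.29, SE 0.47, adjusted p = 0.00189). Ddit4, an inhibitor of mTORC1, was at 18.2 and 31.4 TPM at 6h, against 3.15 and 2.99 TPM at 2h (log2 fold change 2.41, SE 0.37, adjusted p = 0.00023). Klf9, a zinc finger transcription factor, was at 15.7 and 11.3 TPM at 6h, against 4.11 and 1.54 TPM at 2h (log2 fold change 1.79, SE 0.40, adjusted p = 0.00317). In all 3 the 6h libraries lay above the 2h libraries. Fkbp5 and Ddit4 kept their calls in the 4 leave-outs, and Klf9 lost its call without the 2h library of code ip160623. Tsc22d3 (1.19), Per1 (1.15) and Sgk1 (1.20) were not called. Hormone levels were not measured. Eif4ebp1, the translation repressor that mTORC1 inactivates, was at 176 and 94.6 TPM at 6h, against 20.8 and 13 TPM at 2h (log2 fold change 2.70, SE 0.51, adjusted p = 0.0012). It stayed called when any 1 library was left out.

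Iron and lipid handling moved in part. Ftl1, the ferritin light chain, was at 1009.6 and 1253 TPM at 6h, against 399.9 and 294 TPM at 2h (1.51, adjusted p = 0.00692). Slc40a1, the iron exporter ferroportin, was at 13.3 and 5.73 TPM at 6h, against 2.40 and 1.30 TPM at 2h (1.61, adjusted p = 0.0145), and Tfrc, the transferrin receptor, was at 1.75 and 1.65 TPM at 6h, against 0.250 and 0.307 TPM at 2h (0.88, adjusted p = 0.0492). Mt1, a metallothionein, was at 185 and 199 TPM at 6h, against 390.0 and 769 TPM at 2h (-1.71, adjusted p = 0.0476), and the zinc and iron importer Slc39a14 fell too (-1.63). So 3 of 13 tested members rose and 2 fell, and each of these 5 calls was lost in 2 or more of the 4 leave-outs. Nr1h3, the oxysterol receptor LXR alpha, was at 138 and 61.7 TPM at 6h, against 33.8 and 12.4 TPM at 2h (log2 fold change 1.91, SE 0.49, adjusted p = 0.0092), which was lost without the 6h library of code ipA161219 or the 2h library of code ip160623. Its targets Abca1 (-0.95), Abcg1 (0.60) and Mylip (-1.09) were not called, and Scd2, a fatty acid desaturase, rose (1.54), which makes 2 of 12 tested members; the call of Scd2 was lost without any 1 of the 4 libraries.

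Phagocytic and lysosomal genes rose in 3 of 20 tested members and fell in none (median 0.21). Mertk, the receptor by which macrophages engulf dying cells, was at 9.90 and 16.2 TPM at 6h, against 2.81 and 1.33 TPM at 2h (log2 fold change 2.00, SE 0.39, adjusted p = 0.00124), and it kept its call in the 4 leave-outs. Npc1, which moves cholesterol out of lysosomes, was at 7.57 and 14.2 TPM at 6h, against 3.01 and 2.74 TPM at 2h (1.36, adjusted p = 0.0101). Ctsd, a lysosomal protease, was at 537 and 773 TPM at 6h, against 345 and 78.9 TPM at 2h (1.75, adjusted p = 0.0495). The count of the list was 1 without the 6h or the 2h library of code ip160623 and 5 without the 2h library of code ipA161219. Fcgr1, the high-affinity IgG receptor, was the 1 of 15 complement and Fc receptor genes that fell (-1.68, adjusted p = 0.0223), where 2.77% of all tested genes fell. Its call was lost without the 6h library of code ip160623 or the 2h library of code ipA161219. C1qa, C1qb and C1qc were not called. Among 18 IM markers, Mertk and Aif1 rose and Fcgr1 fell, though Aif1 kept its call only in the leave-out of the 6h library of code ip160623.

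Of the other large risers, Crispld2, a secreted protein known to bind LPS, was at 68.6 and 38.1 TPM at 6h, against 3.59 and 5.19 TPM at 2h (log2 fold change 3.09, SE 0.41, adjusted p = 8.99e-05). Lasp1, an actin-binding protein, was at 50.9 and 42.6 TPM at 6h, against 6.35 and 2.78 TPM at 2h (log2 fold change 2.97, SE 0.41, adjusted p = 0.000142). Nt5dc2 was at 43.5 and 23.1 TPM at 6h, against 2.68 and 2.35 TPM at 2h (log2 fold change 3.02, SE 0.52, adjusted p = 0.000632). All 3 stayed called when any 1 library was left out, and their 6h libraries lay above their 2h libraries, as their naming required. Lair1, an inhibitory receptor for collagen, was at 33 and 18.2 TPM at 6h, against 4.56 and 0.964 TPM at 2h (2.75, adjusted p = 0.00989). Lyl1, a transcription factor of blood cells, was at 74.5 and 32 TPM at 6h, against 9.03 and 3.16 TPM at 2h (2.75, adjusted p = 0.00393). Both lost the call without the 6h library of code ipA161219 or the 2h library of code ip160623. Amdhd2, a deacetylase of amino sugar metabolism, was at 41.9 and 25 TPM at 6h, against 5.16 and 3.46 TPM at 2h (2.47, adjusted p = 0.000817). Rnase2a, of a family of near-identical ribonuclease genes whose reads the authors' counting may have split, was at 2.44 and 19.7 TPM at 6h, against 0 and 0.637 TPM at 2h (2.52, adjusted p = 0.0229). Its call was lost without the 6h library of code ip160623 or the 2h library of code ipA161219. Prok2, a secreted chemoattractant that neutrophils make, was at 23.6 and 7.80 TPM at 6h, against 1.45 and 1.30 TPM at 2h (2.43, adjusted p = 0.00114).

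Neutrophil markers did not move one way. Of 14 tested, Mmp9, a gelatinase of neutrophil granules, rose (134 and 80.7 TPM at 6h, against 22 and 18 TPM at 2h; 2.13, adjusted p = 0.00205), and Hdc, histidine decarboxylase, fell (191 and 109.5 TPM at 6h, against 644 and 389.9 TPM at 2h; -1.99, adjusted p = 0.00446). The other 12 were not called, S100a8 at 0.58 and Retnlg at -0.59 among them. The part of neutrophil transcripts in the rise of Prok2 and Mmp9 was not tested. Among 10 classical monocyte markers, Vcan fell (-2.31), and their sum was 7627 and 4290 TPM at 6h, against 7593 and 3582 TPM at 2h. Cxcr4, a receptor that holds leukocytes in the marrow, rose (2.12, adjusted p = 0.0277), and Ccrl2, an atypical chemokine-binding receptor, fell (-2.07, adjusted p = 0.0232), among 15 tested receptors of chemoattraction and adhesion; Cxcr4 kept its call only without the 2h library of code ipA161219. The calls of Hdc, Vcan and Ccrl2 were lost without the 6h library of code ip160623 or that 2h library, while Mmp9 kept its call. Of the other marker lists, 1 of 8 nonclassical monocyte markers rose (Spn, 1.92) and 1 of 4 tested dendritic cell markers fell (Cd209a, -2.78). Spn kept its call in the 4 leave-outs and Cd209a only in that without the 2h library of code ip160623. No tested lymphocyte, eosinophil, epithelial, endothelial, fibroblast or erythroid marker was called.

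Transcription factors and signalling genes mostly gave no call. Of 20 tested myeloid transcription factors Bhlhe40 rose (1.13), Cebpd (-2.27) and Id3 (-2.42) fell, and none of the 3 calls was kept without the 6h library of code ip160623. Of 17 immediate early genes Nr4a3, a nuclear receptor, fell (-2.27, adjusted p = 0.00162; not called without the 6h library of code ip160623), and Fos (-0.03), Egr1 (-0.79) and Jun (0.87) were not called. The medians of these 2 lists, -0.26 each, turned to 0.12 for immediate early genes and 0.13 for the transcription factors under quantile normalization. None of 16 members of the TLR4 complex and adaptors was called, where Cd14, its co-receptor, was at 503 and 302 TPM at 6h, against 1399 and 836 TPM at 2h (-1.67, adjusted p = 0.0632). None was called of 14 anti-inflammatory genes, with Cish at -1.62, Socs3 at -1.54 and Il10 at 0.34, nor of 9 mRNA decay factors and MAPK phosphatases, with Dusp2 at -1.71 the largest. Of 17 cell cycle genes 1 rose, where 4.43% of all tested genes rose. It was the mitotic cyclin Ccnb2 (1.33), and its call was lost without any 1 of the 4 libraries. In iMo 9 of the same 17 rose, where 3.3% of all tested genes did.

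Set among all 4 times, the fallers were mostly genes that stood above their 0h level at 2h, as 232 of the 248 had a 2h mean above the 0h mean. At 6h 145 were still above it, and 85 had a higher mean at 20h than at 6h. Cxcl10 averaged 37.5 TPM at 0h, 7663 TPM at 2h, 673 TPM at 6h and 99.3 TPM at 20h. Tnfaip3 averaged 5.30 TPM at 0h, 374 TPM at 2h, 91.9 TPM at 6h and 22.3 TPM at 20h, and Il15 averaged 29.4 TPM at 0h, 149 TPM at 2h, 12.5 TPM at 6h and 5.03 TPM at 20h. Of the 396 risers, 14 had a 2h mean above 0h, 167 a 6h mean above 0h, and 300 a higher mean at 20h than at 6h. Slc16a3 averaged 40.7 TPM at 0h, 9.25 TPM at 2h, 86.8 TPM at 6h and 71.6 TPM at 20h, and Eif4ebp1 averaged 202 TPM at 0h, 16.9 TPM at 2h, 135 TPM at 6h and 183 TPM at 20h. Nr1h3 averaged 8.16 TPM at 0h, 23.1 TPM at 2h, 99.7 TPM at 6h and 222 TPM at 20h. These shares use the 2h and 6h means that made the calls and are a description. The matching shares of all tested genes are not given, so the counts are not shown to be particular to the called genes. More genes reached 5 TPM at 0h (6895 and 6905) and at 20h (6128 and 6667) than at 2h (4068 and 5374) or 6h (4913 and 5707). All IM libraries of 0h are titled A171227 and B171227, so code and time cannot be told apart in any step from 0h.

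**Figure D4:**
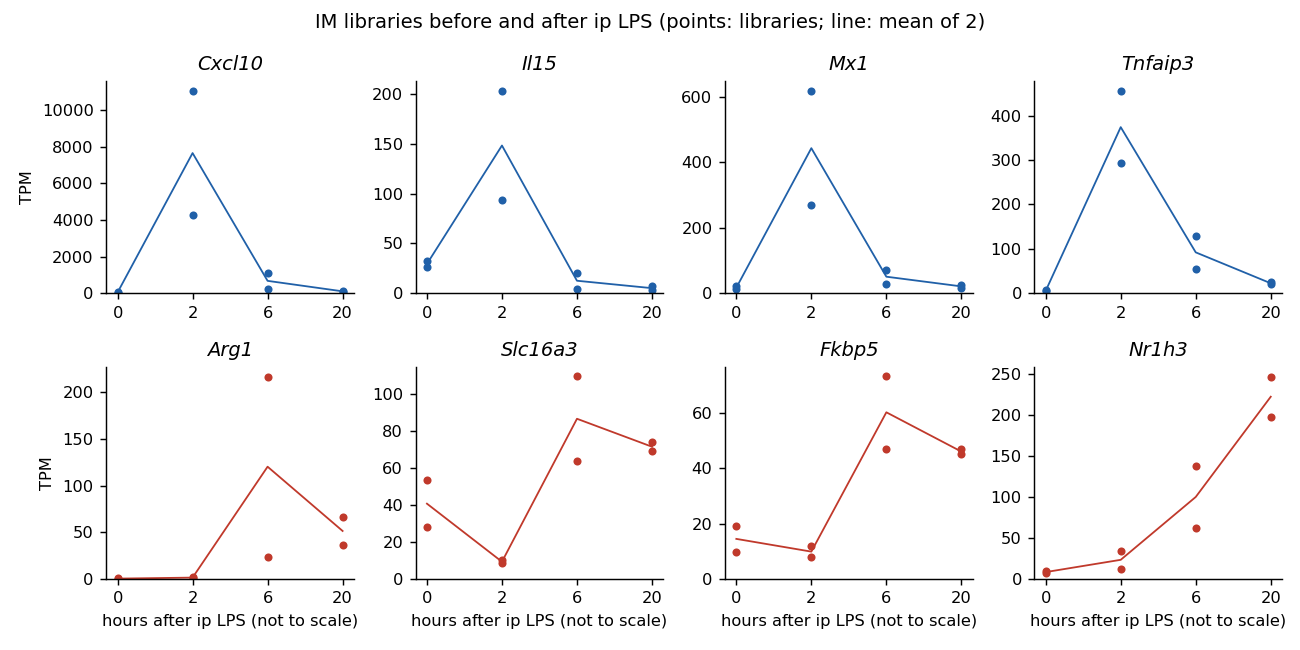
TPM in libraries labelled IM at 0, 2, 6 and 20h after ip LPS (x axis, evenly spaced), with a point per library and a line through the mean of 2, for 4 genes that fell from 2h to 6h (blue, upper row) and 4 that rose (red, lower row). Cxcl10, Il15, Mx1 and Tnfaip3 were highest at 2h, and Arg1, Slc16a3 and Fkbp5 had their highest mean at 6h while Nr1h3 had it at 20h. The highest mean of Arg1 rests on the 6h library of code ip160623, at 217 TPM. In code ipA161219 Arg1 was at 23.8 TPM at 6h and 66.5 TPM at 20h.

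The same step was measured in iMo, with 2 libraries a time, and in AM, with 3 at 6h and 2 at 2h. These comparisons share no library with that in IM, but each took the spread of a gene from the same fit of 27 libraries. The code ipA161219 also ends titles of iMo libraries at 2h and 6h and of an AM library at 6h. The code ip160623 also ends titles of AM libraries at 2h and 6h. Results in IM are therefore not independent of those in iMo or AM. In iMo 726 genes were called (8.12%), 295 higher (3.3%) and 431 lower (4.82%). In AM none of 8937 was called by limma, and 110 had an unadjusted p under 0.05. Of the 396 IM risers 127 also rose in iMo, which is 32.1% of the IM and 43.1% of the iMo calls. Of the 248 IM fallers 193 also fell in iMo, 77.8% of the IM and 44.8% of the iMo calls. No gene was called in opposite directions. Across genes the IM change correlated at a Pearson r of 0.70 with that of iMo and 0.11 with that of AM, as a description.

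The difference between the IM and the iMo change was called for none of 8937 genes by limma, with 458 (5.12%) at an unadjusted p under 0.05 and a median SE of 0.60. Cxcl11 changed by -4.23 in IM and -3.51 in iMo, Mx1 by -3.33 and -3.03, Fkbp5 by 2.29 and 2.77, and Slc16a3 by 2.85 and 2.23. The widest gaps among the 12 largest risers and 12 largest fallers, Arg1 (4.82 in IM and 2.67 in iMo) and Prok2 (2.43 in IM and 0.16 in iMo), did not pass.

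**Figure D5:**
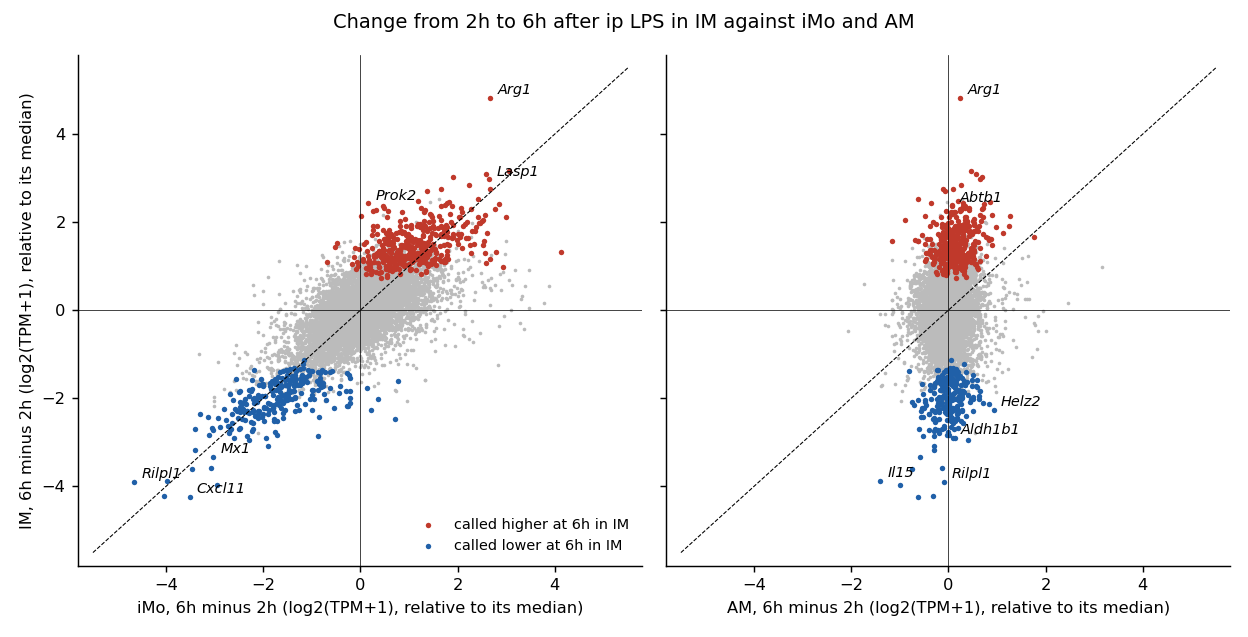
Change from 2h to 6h in libraries labelled IM (y axis) against that in iMo (left) and AM (right), as log2(TPM+1) relative to the median of each comparison, with genes called in IM in red (higher) and blue (lower) and the dashed line marking equal change. Called genes spread along the x axis for iMo, with risers mostly above the dashed line, and lie near 0 on the x axis for AM.

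Against AM, 60 genes (0.671%) had a different change by limma's test of the difference, 26 with a more positive (0.291%) and 34 with a more negative change in IM (0.38%). Helz2, an interferon-induced helicase, was at 22.2 and 17.9 TPM at 6h, against 86.5 and 86.4 TPM at 2h in IM. In AM it averaged 4.91 ± 1.03 TPM at 6h (SD, n = 3) and 2.37 ± 0.523 TPM at 2h (SD, n = 2), and the changes differed by -3.20, SE 0.46, adjusted p = 0.0104. Aldh1b1, a mitochondrial aldehyde dehydrogenase, was at 6.71 and 4.25 TPM at 6h, against 41.4 and 38.9 TPM at 2h in IM, while AM held 2.08 ± 0.425 TPM at 6h (SD, n = 3) and 2.15 ± 0.788 TPM at 2h (SD, n = 2) (difference -3.00, SE 0.43, adjusted p = 0.0104). Ehd4, a protein of endocytic membranes, was at 18.3 and 17 TPM at 6h, against 76.7 and 84.6 TPM at 2h in IM, and AM held 17.8 ± 0.921 TPM at 6h (SD, n = 3) and 16.8 ± 0.870 TPM at 2h (SD, n = 2) (difference -2.54, SE 0.42, adjusted p = 0.0235). Abtb1, a BTB domain protein, was at 32.9 and 17.2 TPM at 6h, against 4.84 and 1.99 TPM at 2h in IM, against a change of 0.08 in AM (difference 2.29, SE 0.50, adjusted p = 0.0235). Rilpl1 (-3.82, SE 0.59, adjusted p = 0.0149) and Slc25a22 (-3.36, SE 0.54, adjusted p = 0.0235) complete the 6 of smallest p. These changes were not particular to IM, since all but Abtb1 also fell in iMo. There Helz2 changed by -2.46, Aldh1b1 by -2.59, Rilpl1 by -4.65, Slc25a22 by -2.30, Ehd4 by -2.29 and Abtb1 by 0.46. Helz2 kept its called difference from AM in all 4 leave-outs, while each of the other 5 lost it in at least 1. The count was 39 without the 6h library of code ipA161219 (8 positive and 31 negative) and 6 without that of ip160623 (5 positive and 1 negative). It was 8 without the 2h library of code ipA161219 (5 positive and 3 negative) and 28 without that of ip160623 (2 positive and 26 negative), so the balance of directions was not stable, and it was 0 when libraries were weighted by their spread (array weights).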

How the data were processed

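The deposited table holds TPM values, which the authors made per gene and library. Its columns do not sum to a common total. In IM they summed to 495387 and 436388 at 6h, against 486549 and 408064 at 2h. The main fit did not rescale them. STAR, HOMER and the mm10 build are named, without versions, in the submitters' processing notes; the annotation is not given. TPM keeps no sequencing depth, so depth is unknown and no counting interval is given. The columns of 18 nasal libraries were not used, since their values did not match their gene names (Pearson r with the other libraries from 0.0097 to 0.025 across genes). log2(TPM+1) was fitted with limma 3.58.1 in R 4.3.3 over 12 group means of 27 libraries, with a mean-variance trend and 15 residual degrees of freedom. Tested were genes at 5 TPM or more in at least 2 libraries; p-values were Benjamini-Hochberg adjusted over all of them and called under 0.05. Differences between cell types were contrasts in the same fit. The fit was tested on simulated data with independent normal spread, equal in all libraries, and no effect of the title code. That setting cannot show how unequal libraries or codes bear on the counts. Named were the 12 largest called risers and 12 largest called fallers whose times did not overlap, with at least 10 TPM on average in the higher group and gene models left out, and the 6 of smallest p in the difference from AM; others come from the gene lists. Members and lists were chosen with earlier results of these data known. Results of some genes are not reported here. Promoters come from RefSeq (GRCm38.p6).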

Additional observations from a re-analysis of the deposited data

Results flagged for a closer look

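The change from 2h to 6h differed between IM and AM for 60 genes by limma's test of the difference, which used 4 IM libraries and 5 AM libraries. Of the 6 with the smallest p, 5 had a more negative change in IM. Helz2 differed by -3.20, SE 0.46, adjusted p = 0.0104. Aldh1b1 differed by -3.00, SE 0.43, adjusted p = 0.0104. Rilpl1 differed by -3.82, SE 0.59, adjusted p = 0.0149, with AM at 0.613 ± 0.121 TPM at 6h (SD, n = 3) and 0.867 ± 0.272 TPM at 2h (SD, n = 2). Slc25a22 differed by -3.36, SE 0.54, adjusted p = 0.0235, with AM at 11.6 ± 2.25 TPM at 6h (SD, n = 3) and 9.37 ± 2.66 TPM at 2h (SD, n = 2). Ehd4 differed by -2.54, SE 0.42, adjusted p = 0.0235. Abtb1 differed in the positive direction, by 2.29, SE 0.50, adjusted p = 0.0235, with AM at 7.55 ± 1.45 TPM at 6h (SD, n = 3) and 7.98 ± 2.87 TPM at 2h (SD, n = 2). The difference of Helz2 stayed called when any 1 of the 4 IM libraries was left out. That of Aldh1b1 was lost without the 6h library of code ip160623, and those of Rilpl1, Slc25a22 and Ehd4 without that library or the 2h library of code ipA161219. That of Abtb1 was lost without the 6h library of code ipA161219 or the 2h library of code ip160623. None of the 6 was called with array weights. All of them but Abtb1 also fell from 2h to 6h in iMo.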

How the results depend on the processing

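The count of 644 called genes for IM at 6h against 2h was 677 and 592 with pseudocounts of 0.1 and 5 TPM (501 higher and 176 lower, and 276 higher and 316 lower), 640 with the filter set on the 4 IM libraries and 635 with no mean-variance trend. It was 384 with no filter on low values, 1106 with quantile normalization, 1286 after rescaling without Rn45s and Lars2, 1147 with the number at the end of the title as a term, 217 with array weights, 374 with only the 8 IM libraries and 44 with only the 4 IM libraries. Leaving out 1 library gave 239 to 414. The title code as replicate block gave 1033, and 1363 with only the 4 IM libraries; deviations of same-coded libraries correlated at 0.42, but with 2 pairs the codes are not shown to pair the libraries.

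The difference between the IM and iMo changes, called for 0 genes, was called for 3 with a pseudocount of 0.1 TPM, for 5 with 5 TPM and for 0 to 2 without 1 library. That between IM and AM, called for 60, 26 positive and 34 negative, was called for 50 with a pseudocount of 0.1 TPM (35 positive and 15 negative), 128 with 5 TPM (41 and 87), 5 with no filter (0 and 5), 102 with the filter on the 4 IM libraries (54 and 48), 279 with quantile normalization (118 and 161), 258 after rescaling (108 and 150), 207 with the replicate block (135 and 72), 255 with the title number as a term (168 and 87), 0 with array weights and 6 to 39 without 1 library. In each of these cases the cause was not tested.

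Over the 79 genes that the naming rule picked (the largest changes, the differences from AM, and up to 4 members per list) and 1340 combinations of gene and alternative, 1048 kept their direction and side of the threshold, 270 lost and 22 gained the call, and 0 changed direction. Some other genes given in the report as not called changed sign when 1 library was left out, Fos and Lcn2 in 2 of the 4 such fits. Of the 71 called, most were lost with only the 4 IM libraries (53), without the 6h library of code ip160623 (37) and with array weights (31), and 0 with the replicate block over the 27 libraries. With 2 libraries a time and no depth in TPM, values of a few TPM rest on an unknown number of reads.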

Other observations

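Some gene families mostly outside the lists held several called genes in IM at 6h against 2h. They were chosen after the values were seen, carry no test, and are given against the 4.43% of all tested genes called higher and 2.77% called lower. Of 11 tested PYHIN genes, DNA sensors of the interferon response, 7 were lower and none higher. Ifi203 was at 29 and 12.8 TPM at 6h, against 146 and 73 TPM at 2h (-2.56, adjusted p = 0.00121), and Aim2 was another of the 7. Of 5 tested genes of PML bodies and the Sp100 family, nuclear proteins that interferon induces, 4 were lower: Pml was at 11.3 and 9.24 TPM at 6h, against 43.9 and 61.5 TPM at 2h (-2.44, adjusted p = 0.00023), and Sp140 was at 16.2 and 9.81 TPM at 6h, against 71 and 58.9 TPM at 2h (-2.47, adjusted p = 0.00317). Of 9 Schlafen genes 3 were lower, with Slfn5 at 96.1 and 51.1 TPM at 6h, against 319 and 196 TPM at 2h (-2.02, adjusted p = 0.026). Ifi203 and Pml kept their calls when any 1 of the 4 libraries was left out. Without the 6h library of code ip160623 the counts that fell were 2 PYHIN, 3 PML and Sp100 and 1 Schlafen genes, and without the 2h library of code ipA161219 they were 2, 4 and 1. Members of these families are alike in sequence, so reads may have been split between them.

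Of 9 tested tubulins 5 were higher and none lower. Tuba1b was at 12.9 and 24.5 TPM at 6h, against 5.01 and 5.89 TPM at 2h (1.35, adjusted p = 0.00991), and Tubb2a was at 5.87 and 10.1 TPM at 6h, against 1.36 and 0.546 TPM at 2h (1.99, adjusted p = 0.0282); tubulin genes too are near-identical. Of 16 genes of lysosomal nutrient sensing and autophagy 6 were higher: Tfeb, the transcription factor of lysosome biogenesis, was at 31.9 and 15.5 TPM at 6h, against 7.92 and 4.23 TPM at 2h (1.57, adjusted p = 0.0328), and Flcn, a regulator of mTORC1 at the lysosome, was at 14.5 and 8.23 TPM at 6h, against 3.60 and 2.23 TPM at 2h (1.43, adjusted p = 0.00981). Of 7 pentose phosphate genes 2 were higher, G6pdx at 78.8 and 46.1 TPM at 6h, against 27.6 and 20.7 TPM at 2h (1.10, adjusted p = 0.042) and Pgd at 90.5 and 75.1 TPM at 6h, against 23.8 and 16.1 TPM at 2h (1.82, adjusted p = 0.00179). Of 4 class II and IV histone deacetylases 2 were higher and 1 lower, with Hdac5 at 9.47 and 4.77 TPM at 6h, against 2.26 and 0.867 TPM at 2h (1.45, adjusted p = 0.0127) and Hdac9 at 2.66 and 0.930 TPM at 6h, against 11.8 and 4.45 TPM at 2h (-1.85, adjusted p = 0.0334). Of Tuba1b, Tubb2a, Tfeb, Flcn, G6pdx, Pgd, Hdac5 and Hdac9, Pgd alone kept its call when any 1 of the 4 libraries was left out. In these 4 fits the tubulin count was 1 to 4 and the nutrient sensing count 2 to 3.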
